A study of Homo sapiens with 9 samples.

Results

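The genes described here were a set of 61 gene symbols, of 19932 in all, that stood high in a single RNA-seq library, sh-Ptbp1-3d replicate 3. They were chosen by their values: above 0.5 FPKM in that library and under 0.1 FPKM in each of the other 8, with 13 name starts left out, those of loci assembled without a gene name and of synaptic, ion channel, receptor, protocadherin, HOX and semaphorin families. FPKM counts sequenced fragments per kilobase of a transcript, relative to all fragments mapped in that library. They are called private genes below. Since this choice used the very values that are described, a high level in replicate 3 and a low level elsewhere is no finding about any of them, and no test of that difference is given. STMN2, NEUROD6, NEUROD2, FEZF2 and DCX are the markers that gave the set its label of neuronal genes. By their known roles, STMN2 and DCX belong to young neurons in general. NEUROD6, NEUROD2 and FEZF2 are transcription factors found in excitatory neurons of the cerebral cortex, though not all of them only there.

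All 9 libraries came from U251, an established human glioblastoma cell line, infected with a lentivirus that carried an M-cherry marker and an sh-RNA. The groups were sh-Luci-3d, a control sh-RNA against luciferase at day 3 after infection, sh-Ptbp1-3d, an sh-RNA against PTBP1 at day 3, and sh-Ptbp1-7d, the same sh-RNA at day 7, with 3 libraries each. Neuronal induction medium with forskolin and dorsomorphin was given after infection, so day 7 cells were longer in this medium, and no sh-Luci library of day 7 was analysed here. The labels do not say whether the 3 libraries of a group came from separate cultures, so a p-value measures only the spread between these libraries, which may be technical.

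Excitatory neurons of the cortex arise from dividing radial glia through a relay of basic helix-loop-helix transcription factors. NEUROG2 starts it, and the NEUROD factors and BHLHE22 follow in cells that have left the cell cycle. TBR1 and FEZF2 mark early-born and deep layer neurons. The young neuron then fills its growing axon with microtubule proteins such as doublecortin and the stathmins. PTBP1 is a splicing repressor whose loss lets its neuronal paralog PTBP2 be made, and its depletion has been used to turn glial cells toward a neuronal state.

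The libraries carried their labels in the targeted gene. PTBP1 was at 110.7, 111.9 and 124 FPKM in the control, at 66.2, 64.4 and 60.97 FPKM at day 3 of sh-Ptbp1, and at 49.7, 50.7 and 51.0 FPKM at its day 7. Replicate 3 of sh-Ptbp1-3d thus had the lowest PTBP1 of its group, and the groups did not overlap. PTBP2 was at 17.0, 17.1 and 19.4 FPKM at day 3 of sh-Ptbp1 against 6.65, 8.16 and 4.80 FPKM in the control. Across 15551 genes, the log2 values of replicate 3 correlated with those of replicates 1 and 2 at r = 0.980 in both cases, beside 0.986 between replicates 1 and 2, where genes are not independent replicates. Of markers of the glioma cells, SOX2 lay between 94.6 and 149 FPKM and VIM between 1094 and 4488 FPKM, whereas GFAP lay between 0.109 and 1.15 FPKM and OLIG2 did not exceed 0.0433 FPKM in any library.

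The promoters of 4 private genes are shown, 2 of NEUROD factors and 2 of cytoskeletal genes of young neurons, since NEUROD factors bind E-boxes. Of the 61 private genes, 33 had an entry in the RefSeq promoter table (GRCh38.p14), and the 250 bases before the annotated start are printed 5′ to 3′ on the gene's strand. Capitals mark 2 forms of the E-box, the hexamer bound by basic helix-loop-helix factors. One form is CATCTG, which reads CAGATG on the other strand and is the form preferred by NEUROD and NEUROG factors. The other is CAGCTG. Further forms of the E-box also occur in these windows and were not marked or counted. NEUROD6 is read from chr7:31340727-31340976 on the minus strand, NEUROD2 from chr17:39607921-39608170 on the minus strand, DCX from chrX:111412193-111412442 on the minus strand, and INA from chr10:103276888-103277137 on the plus strand. The GENCODE annotation starts NEUROD6, NEUROD2 and DCX further upstream, at 31340894, 39609777 and 111412429. By that annotation the NEUROD2 window lies wholly, and those of NEUROD6 and DCX partly, inside the gene.
NEUROD6: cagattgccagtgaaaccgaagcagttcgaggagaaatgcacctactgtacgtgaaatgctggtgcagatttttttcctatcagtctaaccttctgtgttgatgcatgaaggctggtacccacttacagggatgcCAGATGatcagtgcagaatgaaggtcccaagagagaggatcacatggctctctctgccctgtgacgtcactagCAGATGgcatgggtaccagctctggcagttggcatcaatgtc
NEUROD2: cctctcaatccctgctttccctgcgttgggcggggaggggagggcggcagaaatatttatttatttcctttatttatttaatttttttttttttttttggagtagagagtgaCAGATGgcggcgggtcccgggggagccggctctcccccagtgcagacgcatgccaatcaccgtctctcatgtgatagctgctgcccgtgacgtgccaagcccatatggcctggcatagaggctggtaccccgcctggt
DCX: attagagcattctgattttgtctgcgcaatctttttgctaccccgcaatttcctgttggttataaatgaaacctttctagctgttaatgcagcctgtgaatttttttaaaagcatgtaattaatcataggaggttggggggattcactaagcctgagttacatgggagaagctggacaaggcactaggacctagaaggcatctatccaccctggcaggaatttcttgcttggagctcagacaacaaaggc
INA: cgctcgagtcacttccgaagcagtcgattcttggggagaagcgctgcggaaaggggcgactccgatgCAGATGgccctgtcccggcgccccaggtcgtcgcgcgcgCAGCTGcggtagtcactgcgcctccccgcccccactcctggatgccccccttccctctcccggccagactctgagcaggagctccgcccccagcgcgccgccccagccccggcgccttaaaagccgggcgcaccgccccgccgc

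The window of NEUROD6 held CATCTG on either strand at 2 places, that of NEUROD2 at 1 place and that of INA at 1 place, beside 1 CAGCTG in INA. That of DCX held neither. Over the private genes, 5 of 33 windows, 15.2%, held CATCTG on either strand, against 12.2% of 27305 promoter windows of the same length. CAGCTG, which reads alike on both strands, stood in 6 of 33, 18.2%, against 13.8%, and TATAAA in 2 of 33, 6.06%, against 11.1%. The median GC content of the 33 windows was 66.8%, against 58.0% for all windows. These are matches of letters only. The gene bodies stood apart on the genome: FEZF2 lies at chr3:62369681-62373550, NEUROD2 at chr17:39603768-39607920 and DCX at chrX:111293779-111412192 (RefSeq, GRCh38.p14), and the 59 genes with a RefSeq entry lay on 20 chromosomes, with at most 7 on one. All 59 are protein coding. Their median span was 31.7 kb against 25.8 kb over 18993 genes, and the longest annotated transcript of the 60 private genes in GENCODE had a median length of 3147 bases against 3180 bases over 19458 genes.

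**Figure D1:**
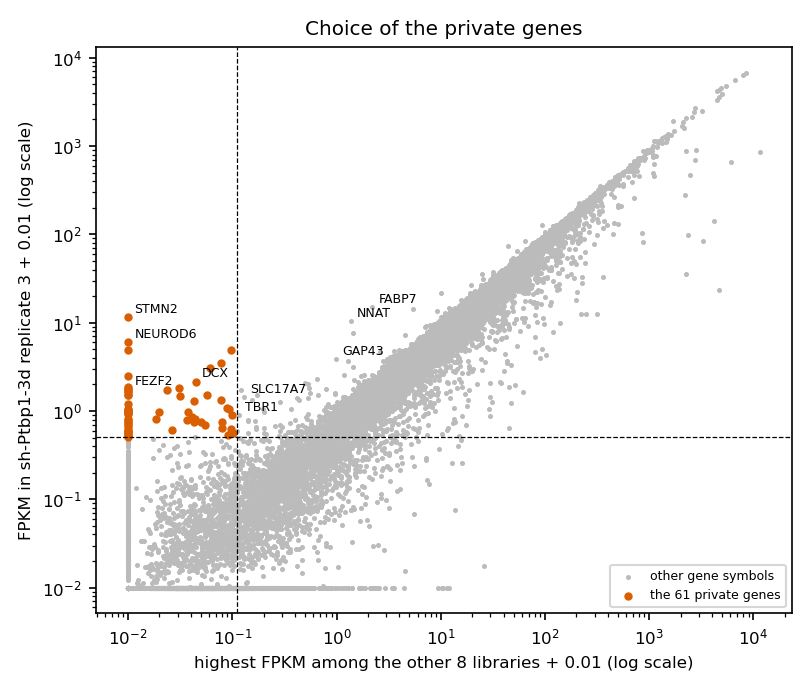
Each point is 1 gene symbol, with its FPKM in sh-Ptbp1-3d replicate 3 against its highest FPKM among the other 8 libraries, both with 0.01 added and on log axes. Dashed lines are the thresholds of 0.5 and 0.1 FPKM, and the 61 private genes in the upper left corner range from 0.503 FPKM (MDFI) to 11.5 FPKM (STMN2), with FABP7, NNAT and GAP43 labelled among the genes above the diagonal that other libraries also held.

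The private genes were low in absolute terms. Their median was 0.949 FPKM in replicate 3, with 27 above 1 FPKM and 34 between 0.5 and 1 FPKM, and together they summed to 90.4 FPKM, 0.0234% of the 386628 FPKM of the library. The 5 highest (STMN2, NEUROD6, NSG2, FXYD6 and STMN4) held 34.2% of that sum. In the other 8 libraries the same 61 genes summed to between 0.316 and 0.749 FPKM. Of those 488 values, 378 were listed at 0, and 32 of the 61 genes were listed at 0 in all 8 libraries. In files without counts a listed 0 can also be a failed estimate. The highest of the 110 remaining values was 0.0926 FPKM, of MYCN in sh-Ptbp1-7d replicate 1. Because RNA came from whole cultures, a few cells with much of a transcript and many cells with little of it cannot be told apart.

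Neither threshold fell into a gap between values. Just inside the upper threshold were MDFI at 0.503 FPKM, FXYD7 at 0.519 FPKM and ZSCAN18 at 0.521 FPKM, and just outside it RNF165 at 0.4999 FPKM, EMX1 at 0.492 FPKM and PRXL2A at 0.470 FPKM. At the lower threshold, MYCN, CYRIA and NSG2 had highest other values of 0.0926, 0.0888 and 0.0879 FPKM. The 3 symbols next outside were NEUROG2, at 0.591 FPKM in replicate 3 and at most 0.1005 FPKM elsewhere, TBR1, at 0.886 and at most 0.107 FPKM, and FABP5, at 1.71 and at most 0.112 FPKM. NEUROG2, TBR1 and EMX1 are themselves factors of the developing dorsal cortex, the first for neurogenesis, the second for deep layer neurons and the last for the identity of the region.

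**Figure D2:**
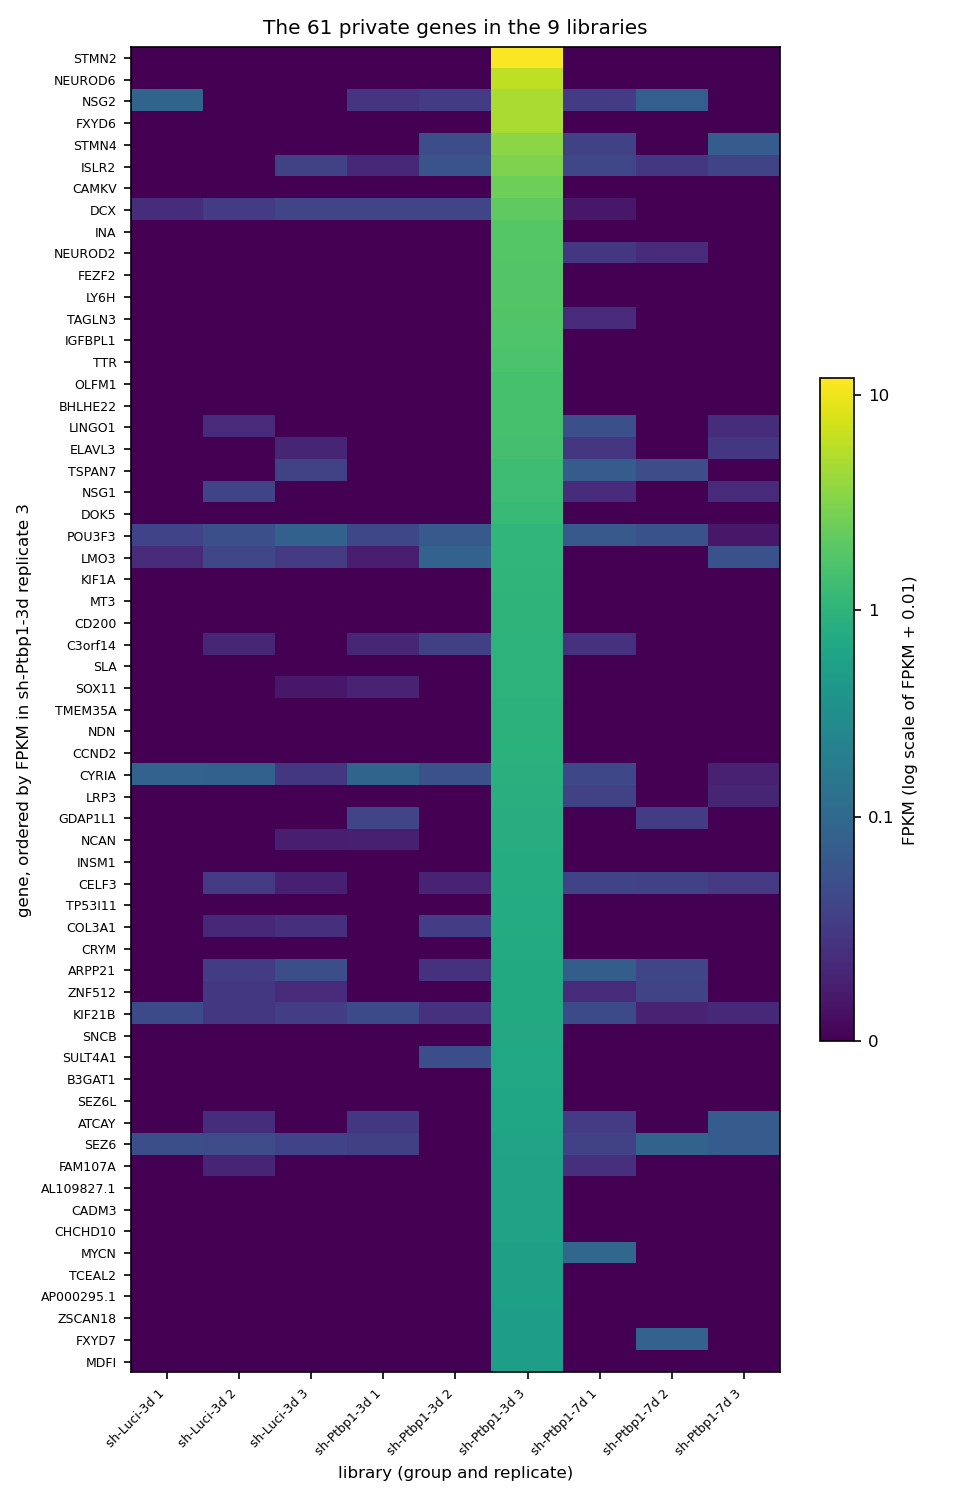
FPKM of the 61 private genes (rows, ordered by their level in sh-Ptbp1-3d replicate 3) in the 9 libraries (columns), as colour on a log scale of FPKM + 0.01. The column of sh-Ptbp1-3d replicate 3 runs from 11.5 FPKM at the top to 0.503 FPKM at the bottom, as the choice of the genes requires, and no cell of the other columns exceeds 0.0926 FPKM.

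Proteins of the cytoskeleton and of axonal transport gave the largest share of the summed level, 23.1 FPKM over 8 genes with a median of 1.78 FPKM. STMN2, a stathmin that regulates microtubules in growing axons, was at 11.5 FPKM in replicate 3 and listed at 0 in all 8 other libraries. Its relative STMN4 was at 3.53 FPKM in replicate 3, at 0.0433 FPKM in sh-Ptbp1-3d replicate 2, at 0.0306 and 0.0684 FPKM in the first and last sh-Ptbp1-7d libraries, and at 0 in the other 5. STMN3, another stathmin of neurons and no private gene, was instead present in every library, at 7.45, 6.404 and 8.54 FPKM in the control, 8.45, 7.94 and 8.36 FPKM at day 3 of sh-Ptbp1 and 16.9, 16.3 and 15.2 FPKM at day 7. For STMN3, replicate 3 lay between its group mates, and the day 7 libraries lay above all day 3 libraries.

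DCX, doublecortin, binds microtubules in migrating young neurons. It was at 2.14 FPKM in replicate 3 and between 0.0150 and 0.0346 FPKM in the other 5 day 3 libraries, at 0.00584 FPKM in sh-Ptbp1-7d replicate 1 and at 0 in the other 2 day 7 libraries. Outside replicate 3, the trace of DCX was thus no higher at day 7 than at day 3. INA, internexin, an intermediate filament of early neurons, was at 1.84 FPKM and at 0 elsewhere. TAGLN3, an actin-linked protein of neurons, was at 1.72 FPKM, with 0.0138 FPKM in sh-Ptbp1-7d replicate 1 as its single value above 0 elsewhere. KIF1A, a kinesin motor that carries synaptic vesicle precursors, was at 1.03 FPKM and at 0 elsewhere. The related motor KIF21B was at 0.731 FPKM and was found in all 8 other libraries, at 0.0105 to 0.0397 FPKM.

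The 12 transcription factors and cofactors had a median of 1.002 FPKM and a sum of 17.3 FPKM. NEUROD6, which acts in maturing excitatory neurons, led them at 6.03 FPKM and was listed at 0 in all 8 other libraries. NEUROD2, its close relative, was at 1.83 FPKM in replicate 3, at 0.0206 FPKM in sh-Ptbp1-7d replicate 1, at 0.0138 FPKM in its replicate 2 and at 0 in the other 6. FEZF2, which specifies neurons that project below the cortex, was at 1.77 FPKM, and BHLHE22, a factor of cortical projection neurons, at 1.497 FPKM, both at 0 elsewhere. Per kilobase, NEUROD6 thus stood highest of these factors in replicate 3.

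POU3F3, a POU factor of upper layer neurons and their progenitors, was at 1.06 FPKM in replicate 3 and above 0 in all 8 others, at 0.00585 to 0.0797 FPKM. Its relative POU3F2 was no private gene: it was at 32.1 FPKM in replicate 3, at 30.7 and 31.5 FPKM in its group mates and at 52.2 to 61.8 FPKM at day 7. LMO3, a cofactor of neuronal transcription, was at 1.04 FPKM and above 0 in 6 others, up to 0.0835 FPKM. SOX11, a factor of newly born neurons, was at 0.960 FPKM, and INSM1, which promotes the step from progenitor to neuron, was at 0.798 FPKM. The neuronal repressor REST, whose loss releases many neuronal genes, was at 6.31 FPKM in replicate 3 and at 6.43 and 6.34 FPKM in its group mates.

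The 6 genes of vesicles, endosomes and the synapse had a median of 1.117 FPKM. NSG2, an endosomal protein of neuronal dendrites, was at 4.93 FPKM in replicate 3 and between 0.0202 and 0.0879 FPKM in 5 other libraries, and NSG1, of the same family, was at 1.28 FPKM with up to 0.0326 FPKM elsewhere. CAMKV, a kinase-like protein of synaptic vesicles, was at 2.47 FPKM and at 0 elsewhere. Among genes kept out by their name start, SYT13 and CACNG7 met the same thresholds, SYT13 at 0.634 FPKM and listed at 0 elsewhere and CACNG7, a subunit of AMPA receptor and calcium channel complexes, at 0.727 FPKM with at most 0.0369 FPKM elsewhere, and with them the count was 63. FXYD6, a regulator of the sodium pump, was at 4.92 FPKM and at 0 elsewhere, where its annotation overlaps the readthrough gene FXYD6-FXYD2.

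Proteins of the cell surface and the extracellular space were the most numerous, 14 genes with a median of 0.920 FPKM and a sum of 16.8 FPKM. ISLR2, a membrane protein of growing axons, was at 3.06 FPKM and above 0 in 6 other libraries, up to 0.0518 FPKM. LY6H, which binds nicotinic receptors, was at 1.77 FPKM, IGFBPL1, found in young neurons, at 1.69 FPKM, and OLFM1, a secreted olfactomedin of neurons, at 1.501 FPKM, and all of these were listed at 0 elsewhere. LINGO1, a component of the Nogo receptor complex, was at 1.496 FPKM and TSPAN7, a tetraspanin of neurons, at 1.31 FPKM, with up to 0.0466 and 0.0686 FPKM elsewhere. COL3A1, a fibrillar collagen that is not a neuronal gene, was at 0.785 FPKM.

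The remaining groups were smaller. The RNA-binding proteins were ELAVL3 at 1.47 FPKM, CELF3 at 0.787 FPKM and ARPP21 at 0.741 FPKM. ELAVL3 belongs to the neuronal Hu proteins, of which ELAVL2 was present in all libraries, at 5.57 FPKM in replicate 3 and at 5.87 and 5.84 FPKM in its group mates. In signalling and growth, DOK5, an adaptor of receptor tyrosine kinases, was at 1.18 FPKM and CCND2, cyclin D2, at 0.906 FPKM, both at 0 elsewhere. TTR, transthyretin, a thyroid hormone carrier that the choroid plexus and the liver secrete in quantity, was at 1.62 FPKM and MT3, a metallothionein of brain, at 1.01 FPKM, again with 0 elsewhere, and CRYM, a thyroid hormone binding protein also found in deep layer neurons, was at 0.749 FPKM.

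For some private genes the source of the fragments is uncertain. AL109827.1 overlaps CPNE1, RBM12 and NFS1 on its own strand, and AP000295.1 overlaps IFNAR2 and IL10RB, so their values of 0.592 and 0.546 FPKM rest on how fragments were divided between overlapping genes. ELAVL3, TSPAN7, CCND2 and CADM3 also overlap another protein-coding annotation on their own strand. NSG1, LMO3, SLA, LRP3, CELF3, TP53I11, CRYM, SEZ6, CHCHD10 and ZSCAN18 overlap a protein-coding gene on the opposite strand, and the sources used here do not state whether counting used strand.

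No other library held a set of this size. By the same thresholds, sh-Luci-3d replicates 1, 2 and 3 held 1, 0 and 0 private genes, sh-Ptbp1-3d replicates 1 and 2 held 2 and 0, and sh-Ptbp1-7d replicates 1, 2 and 3 held 2, 3 and 0. None of those 8 genes was a neuronal marker of the lists used here. Loci assembled without a gene name did not differ in that way, with 2 private to replicate 3 and 0 to 4 in the others. Replicate 3 also did not lack genes that the others held: 1 symbol, CORT, was above 0.5 FPKM in all 8 others and under 0.1 FPKM in it, beside 0 to 3 such symbols in the other libraries. In total 11934 symbols were above 0.5 FPKM in replicate 3, within the 11791 to 12128 of the other libraries.

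**Figure D3:**
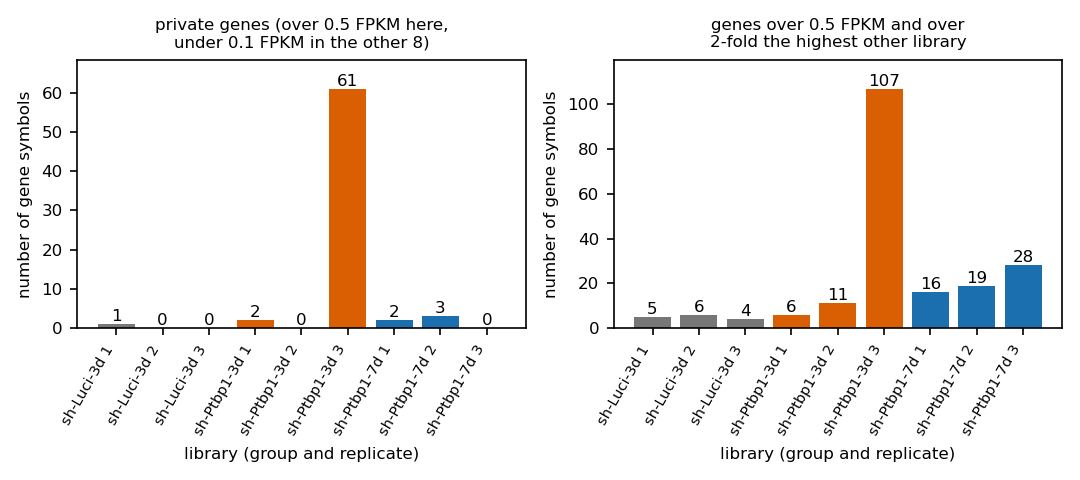
Bars give, for each library, the number of gene symbols above 0.5 FPKM there and under 0.1 FPKM in the other 8 (left), and the number above 0.5 FPKM and more than 2-fold over the highest other library (right). In sh-Ptbp1-3d replicate 3 these were 61 and 107, against at most 3 and at most 28 in the other libraries. The 107 include the 61, as their choice requires.

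A looser measure counted symbols above 0.5 FPKM and more than 2-fold above the highest of the other 8 libraries, so that genes the cells already expressed could enter. In replicate 3 it held 107 symbols, 0.537% of all, against 4 to 28 in the other libraries. The 61 private genes are among these 107, as their choice requires, so the 107 is no separate count. Lists of cell type genes were then read with it. The list of 8 glutamatergic lineage factors had 5, NEUROG2, TBR1, NEUROD2, NEUROD6 and BHLHE22, of which the last 3 are private genes. Of the other 3, NEUROG1, EOMES and NEUROD1, each was at 0 in all 8 other libraries and at 0.134, 0.288 and 0.0610 FPKM in replicate 3. The 5 factors that are no private genes summed to 1.96 FPKM in replicate 3 against 0.0559 and 0.186 FPKM in its group mates, 0.0466 to 0.125 FPKM in the control and 0.0654 to 0.146 FPKM at day 7. With the private genes, whose level the choice fixed, the sum in replicate 3 was 11.3 FPKM.

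Genes of young neurons were read in the same way. The list of 25 holds 8 private genes (STMN2, DCX, ELAVL3, INA, NSG1, NSG2, STMN4 and CELF3), which pass by their choice. Of the other 17, 11 were above 0.5 FPKM in replicate 3 and 10 in each other library. Only 1 was both above 0.5 FPKM and more than 2-fold above the highest other library, GAP43, a growth cone protein. LHX2, a factor of the cortical field, was the 1 of 5 dorsal telencephalon factors past that measure, at 2.54 FPKM in replicate 3 and at 0.667 to 1.18 FPKM elsewhere. Of the deep layer genes only the private genes FEZF2 and CRYM, and of the upper layer genes only the private gene POU3F3, passed it, as their choice requires, and of the 5 other genes in each list 0 did. SLC17A7, the vesicular glutamate transporter of cortical neurons, was the 1 of 6 genes of mature excitatory neurons, at 1.42 FPKM against at most 0.121 FPKM. FABP7, a lipid carrier of radial glia, was the 1 of 9 radial glia genes, at 15.0 FPKM against 0.637 to 2.19 FPKM. INSM1, a private gene, was the 1 of 4 neuronal conversion factors, and of the 3 PTBP genes 0 passed. Below 0.5 FPKM, other genes of these lists also exceeded 2-fold in replicate 3. ELAVL4 was at 0.390 FPKM against at most 0.0192 FPKM, EMX1 at 0.492 against 0.0337 and LDB2 at 0.481 against 0.108 FPKM. HES5 was at 0.160 against 0.0301 FPKM, MYT1 at 0.158 against 0.0551 and BCL11B at 0.0787 against 0.0124 FPKM. MYT1L, RBFOX1, EMX2, HOPX, SLC17A6 and CAMK2A were at 0.213, 0.149, 0.225, 0.306, 0.0242 and 0.0212 FPKM against 0 elsewhere.

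**Figure D4:**
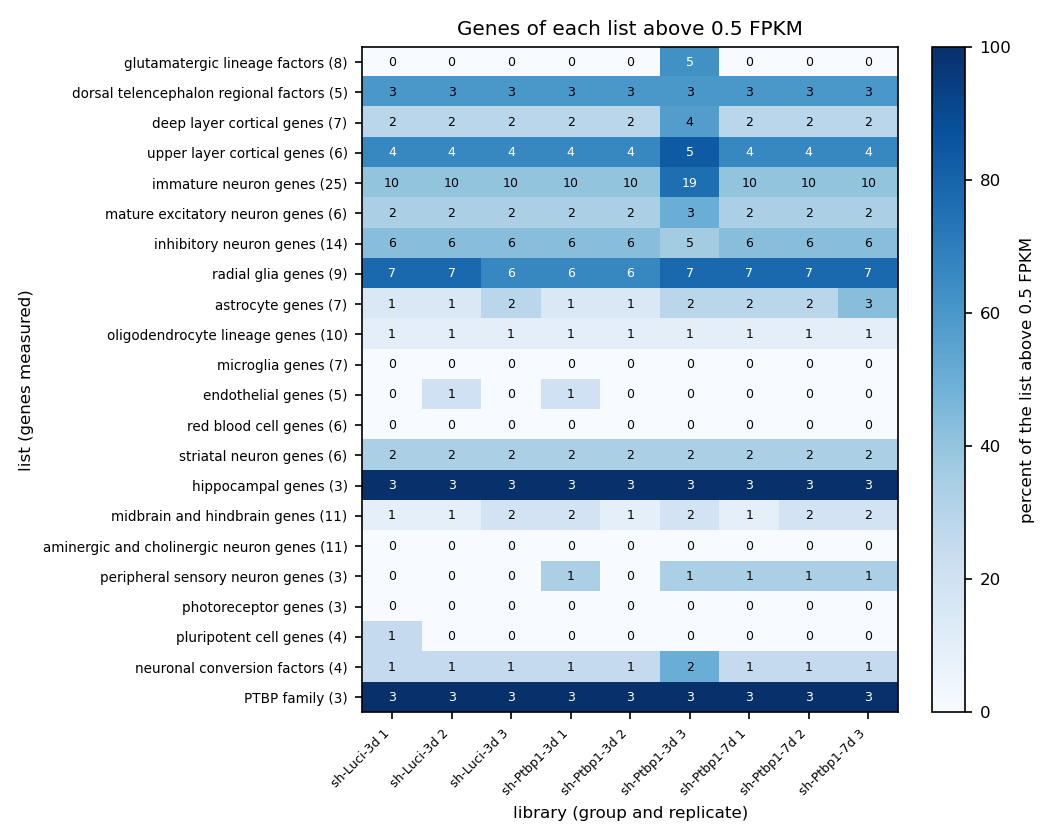
Number of genes above 0.5 FPKM (figure in each cell) for 22 lists of cell type genes (rows, with the number of genes measured) in the 9 libraries (columns), coloured by the percent of the list. Glutamatergic lineage factors had 5 in sh-Ptbp1-3d replicate 3 and 0 in every other library, and immature neuron genes had 19 against 10, of which the private genes, high by their choice, made up 3 of the 5 and 8 of the 19.

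Lists of other cell types held no gene past that measure. These lists held 14 inhibitory neuron, 7 astrocyte, 10 oligodendrocyte lineage, 7 microglia, 5 endothelial, 6 red blood cell and 6 striatal genes. They also held 3 hippocampal, 11 midbrain and hindbrain, 11 aminergic and cholinergic, 3 peripheral sensory, 3 photoreceptor and 4 pluripotent cell genes. None was both above 0.5 FPKM in replicate 3 and more than 2-fold above the highest other library. For a gene that the other libraries already held, a small addition cannot pass this measure, so its failure says little. All 3 hippocampal genes were of this kind, with PROX1 at 1.18 to 4.62 FPKM elsewhere. So were GAD1 of inhibitory neurons at 6.12 to 8.09 FPKM and GJA1 of astrocytes at 6.21 to 12.9 FPKM. Below 0.5 FPKM, a few exceeded 2-fold in replicate 3. The striatal gene PPP1R1B was at 0.222 FPKM against at most 0.0204 FPKM, and the astrocyte gene SLC1A2 at 0.166 against 0.0479 FPKM. ALAS2 was at 0.0238 against 0.0117 FPKM, and NPY and CHAT were at 0.0751 and 0.0144 FPKM against 0 elsewhere. Of the inhibitory neuron genes, GAD2, SLC32A1, SST and PVALB were at 0 in every library. The summed level of that list was 22.7 FPKM in replicate 3 against 22.4 and 22.9 FPKM in its group mates, 20.4 to 21.8 FPKM in the control and 26.6 to 27.8 FPKM in sh-Ptbp1-7d. For microglia, C1QA, C1QB and AIF1 were at 0 in every library. The microglia list summed to 0.219 FPKM in replicate 3, against 0.217 and 0.149 FPKM in its mates, 0.101 to 0.191 FPKM in the control and 0.0806 to 0.113 FPKM in sh-Ptbp1-7d. For oligodendrocytes, MOG and MAG were at 0 in every library. The oligodendrocyte list summed to 1.43 FPKM in replicate 3 against 1.65 and 1.82 FPKM in its mates, with 1.76 to 1.91 FPKM in the control and 2.23 to 2.97 FPKM in sh-Ptbp1-7d. Of the astrocyte genes, AQP4 was at 0 in replicate 3 and at most 0.0566 FPKM elsewhere. GFAP was at 1.15 FPKM in replicate 3, above its mates at 0.111 and 0.497 FPKM. Its highest value elsewhere was close, at 1.14 FPKM in sh-Ptbp1-7d replicate 3. For red blood cells, HBB was at 0 in replicate 3. HBA1 and HBA2 were at 0.0971 and 0.0852 FPKM in it, and at up to 0.178 and 0.175 FPKM elsewhere. Whether the private genes came from the cells of this culture or from RNA of another source was not tested.

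Markers of young neurons outside the private set took several courses in replicate 3. Of these 17 listed genes, 11 lay within the range of the other 8 libraries, and ELAVL4, GAP43, CRMP1, MYT1L, RBFOX1 and RBFOX3 lay above all of them. CRMP1, a collapsin response protein of growing axons, was at 13.55 FPKM in replicate 3 and at 7.50 to 9.15 FPKM elsewhere. TUBB3, a neuronal tubulin, was at 237, 250.2 and 297 FPKM in the control, at 322, 314 and 314 FPKM at day 3 of sh-Ptbp1, and at 116, 112 and 127 FPKM at day 7. Replicate 3 matched its group mates, and all day 7 libraries lay under all day 3 libraries. MAP2, a dendritic microtubule protein, was at 24.1 FPKM in replicate 3 against 18.9 and 18.1 FPKM in its mates, within the 17.7 to 26.6 FPKM of sh-Luci-3d.

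The axonal microtubule protein MAPT, tau, lay between these patterns. It was at 0.356, 0.422 and 0.373 FPKM in the control, at 0.387, 0.391 and 2.89 FPKM at day 3 of sh-Ptbp1, and at 3.74, 3.61 and 2.51 FPKM at day 7. Replicate 3 was the one day 3 library that reached the range of day 7. GAP43 took another course, at 0.602, 0.987 and 3.88 FPKM at day 3 of sh-Ptbp1, 0.908 to 0.969 FPKM in the control and only 0.0882 to 0.334 FPKM at day 7.

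**Figure D5:**
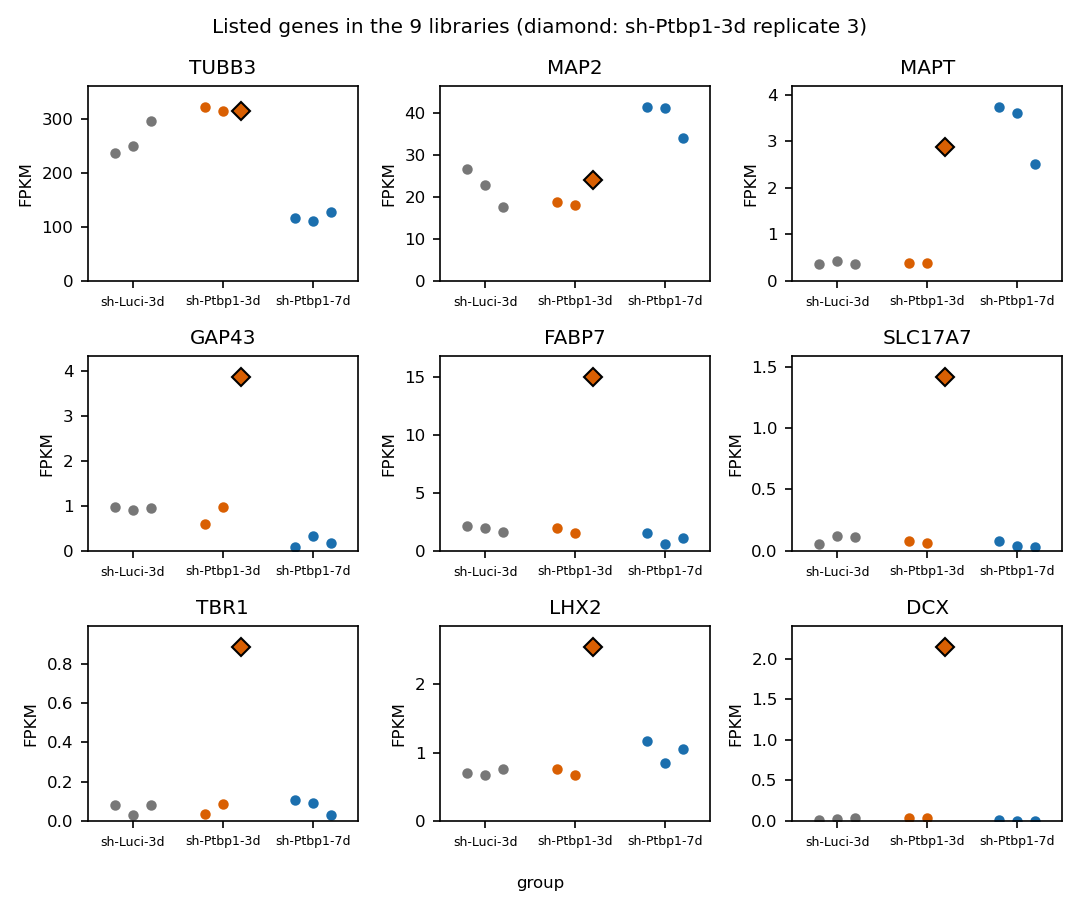
FPKM of 9 genes in the 9 libraries, 1 point per library, grouped by sh-RNA and day, each panel on its own linear axis from 0, with sh-Ptbp1-3d replicate 3 drawn as a diamond. TUBB3 and MAP2 in replicate 3 lay within the range of the day 3 libraries, MAPT at 2.89 FPKM lay in the range of the day 7 libraries, and GAP43, FABP7, SLC17A7, TBR1, LHX2 and DCX lay above every other library.

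The group comparisons that contain replicate 3 were fitted with limma on log2(FPKM + 0.1), for 15551 genes whose mean reached 0.1 FPKM, with Benjamini-Hochberg adjustment. On this scale the change of a low gene comes out too small. Only 38 of the 61 private genes passed that filter, all of them through their level in replicate 3. Comparing sh-Ptbp1-3d with its sh-Luci control, 2 genes in all passed an FDR of 0.05 and a fold of 2, 0.0129% of those tested, PTBP2 at a log2 difference of 1.46 (SE 0.16, adjusted p = 0.00857 from limma) and AP000356.5, which is no private gene, at 3.82 (SE 0.51, adjusted p = 0.0454). That count was between 0 and 59 when any 1 library was left out, with 59 without sh-Luci-3d replicate 3, 0 without sh-Luci-3d replicate 1 or any 1 sh-Ptbp1-3d library, and 1 without sh-Luci-3d replicate 2, sh-Ptbp1-7d replicate 1 or sh-Ptbp1-7d replicate 3. No call is read for the private genes, since this fit holds the values that chose them.

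In the private genes a single high library moved the group mean and widened its error together. STMN2 had a log2 difference of 2.29 for sh-Ptbp1-3d against its sh-Luci control with an SE of 1.44, from the values 0, 0 and 11.5 FPKM against 0, 0 and 0. DCX had 1.47 with an SE of 0.89.

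Comparing day 7 with day 3 of sh-Ptbp1, 2211 genes passed an FDR of 0.01 and a fold of 2, 14.2% of those tested, with 1293 higher at day 7 (8.31%) and 918 lower (5.9%). This comparison shares the sh-Ptbp1-3d libraries with the one before, and again no call is read for the private genes. Without replicate 3 no private gene reached the mean of 0.1 FPKM, so none was tested in either comparison.

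Genes of young neurons outside the set showed what replicate 3 did to this comparison. Of the 17 that are no private genes, 12 were tested, 0 were called higher at day 7 and 3 were called lower, TUBB3 (log2 difference -1.42, SE 0.09), the adhesion molecule L1CAM (-2.90, SE 0.12) and GAP43 (-2.34, SE 0.54). The count at an unadjusted limma p under 0.05 was 10 of the 12, beside 8751 of all 15551 genes tested. Without replicate 3, 11 were tested, and MAPT and MAP2 were called higher while TUBB3, L1CAM and GAP43 were again called lower. The 0 listed genes higher thus became 2 when this 1 library was left out. Over all genes, the fit without replicate 3 called 1193 of 15511 higher and 918 lower.

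MAPT had a log2 difference of 1.90 between day 7 and day 3 with an SE of 0.57 (adjusted p = 0.0168 from limma), and of 2.77 with an SE of 0.22 (adjusted p = 1.31e-05) without replicate 3. MAP2 moved from 0.94 (SE 0.16, adjusted p = 0.00058), under the fold of 2, to 1.06 (SE 0.16, adjusted p = 0.000639). At day 3 MAPT differed from sh-Luci-3d by 0.89 (SE 0.57, adjusted p = 0.78) with replicate 3 and by 0.02 (SE 0.22, adjusted p = 0.997) without it. Over all genes, 1970 calls of the day 7 comparison were kept without replicate 3, 240 were lost and 139 were gained.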

How the data were processed

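RNA-seq libraries of U251 cells were grouped by their labels, 3 for the control at day 3 and 3 each for the PTBP1 sh-RNA at days 3 and 7. The authors filtered reads from an Illumina HiSeq instrument, aligned them to a reference and deposited FPKM values for 22295 entries, 19932 gene symbols and 2363 loci named in the style of StringTie. The submitters' processing notes name HISAT2 and GRCh38, without a version. All 9 columns matched a library. The depth of each library is unknown, since FPKM holds no counts, so no counting error is given. A table of coordinates of the assembled loci was not used here.

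The private genes and the lists of cell type genes (22 lists, 163 genes) were chosen with earlier results of these data known, and the role of each private gene was assigned after the set was seen. The genes named were the 5 markers, the 25 private genes with the highest FPKM, those on a list, the 3 nearest to each threshold on either side and list genes where a list is described. Others were named after their values were seen, KIF21B, SOX11, ARPP21, CCND2, MT3, COL3A1, SYT13, CACNG7 AP000356.5 and genes with overlapping annotation among them. Names were matched to RefSeq (GRCh38.p14) and GENCODE v29.

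Group comparisons were fitted with limma 3.58.1 (R 4.3.3), using group as the only term over all 9 libraries and letting the prior variance follow the mean level, at the thresholds of the study's methods. Alternatives were pseudocounts of 1 and 0.01, other filters, TPM, library weights, the replicate number as a block, leaving out each library and other thresholds for private genes. The measure of more than 2-fold over the highest other library was added after seeing the data. The fit was tested on simulated data. Some single genes are not reported here. Plots were made in Python 3.11.15 with matplotlib 3.10.9.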

Additional observations from a re-analysis of the deposited data

How the results depend on the processing

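The count of 61 private genes in sh-Ptbp1-3d replicate 3 became 27 above 1 FPKM, 121 above 0.25 FPKM, 105 at the same thresholds on TPM and 107 by the measure of more than 2-fold over the highest other library, which was added after seeing the data. The list by TPM shared 46 genes with the 61, 75.4% of the 61 and 43.8% of the 105. TPM scales every library to one fixed sum, larger than the 367412 to 404922 FPKM of these libraries. The same 2 thresholds on TPM were therefore both lower in terms of FPKM. With a limit of 0.05 or 0.2 FPKM in the other libraries the count was 49 or 78, with the left-out name starts it was 63, and without any 1 other library it lay between 61 and 64. Under the settings of 1, 0.25 and 0.2 FPKM and TPM, the other libraries held 0 to 3, 2 to 11, 0 to 5 and 1 to 8 private genes.

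The 2 genes called by limma for sh-Ptbp1-3d against its sh-Luci control became 1 with a pseudocount of 0.01, 1 with a mean of at least 1 FPKM, 1 on TPM and 97 with library weights, where sh-Luci-3d replicate 3 had the weight 0.181 and sh-Ptbp1-3d replicate 3 the weight 0.811. Without 1 library each they were between 0 and 59, with 956 at an unadjusted p under 0.05 without sh-Ptbp1-3d replicate 3. The 2211 genes called for day 7 against day 3 of sh-Ptbp1 became 1255 with a pseudocount of 1, and lay between 2012 and 2230 without 1 library each. The cause of these shifts was not tested. With the replicate number as a block these counts were 0, with 1173 at an unadjusted p under 0.05, and 2140. The numbers do not pair the libraries, since the deviations of same-numbered libraries from their group means correlated between -0.0317 and 0.0512, and 3 of 9 libraries correlated best with their own number.

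Each group has 3 libraries, and the private genes rest on 1 of them. No second library of the same RNA was analysed here, and depth is unknown, so the error of a single low FPKM value cannot be given.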

Other observations

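Beyond the private genes and the listed genes, the looser measure (above 0.5 FPKM and more than 2-fold over the highest other library) brought in further genes. Some, NNAT, NCKAP1 and GNG3 among them, were above 0 in all 8 other libraries. Others, such as MIF and FABP5, were listed at 0 in at least 1 of those libraries. All were chosen by these values, so the values are a description. NNAT, neuronatin, a small membrane protein of the developing brain, was at 10.5 FPKM in sh-Ptbp1-3d replicate 3 and at 0.777 to 1.36 FPKM in the other 8 libraries. NCKAP1, a subunit of the actin-regulating WAVE complex, was at 21.6 FPKM against 7.19 to 10.1 FPKM. GNG3, a G protein subunit of neurons, was at 2.27 FPKM against 0.324 to 0.635 FPKM. BCL11A, a transcription factor of cortical neurons, was at 0.657 FPKM against 0.0597 to 0.160 FPKM. MIF at 14.3 FPKM, RPL17-C18orf32 at 7.73 FPKM and FABP5 at 1.71 FPKM passed the same measure, but RPL17-C18orf32 is a readthrough gene and MIF and FABP5 have near-identical or overlapping copies, so their values are uncertain.

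Of the 30 such genes outside the private set that limma tested for day 7 against day 3 of sh-Ptbp1, leaving out sh-Ptbp1-3d replicate 3 added a call for BEX4, SEPTIN3 and MIF and ended that of REEP1. They were chosen for standing highest in that library, so the upward direction of these shifts was fixed by the choice. SEPTIN3, a septin of neurons, had a log2 difference of 0.60 (SE 0.59, adjusted p = 0.427 from limma) with the library and of 1.52 (SE 0.24, adjusted p = 0.000701) without it. REEP1, which shapes the endoplasmic reticulum of axons, moved from -1.82 (SE 0.40, adjusted p = 0.00303) to -1.49 (SE 0.40, adjusted p = 0.0137).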
